A study of Mus musculus with 10 samples.

Results

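The Eya, Six-family and Dach regulators are 9 of the 19938 genes measured in the ear region of mouse embryos at embryonic day 12.5. They were chosen by name (Eya1, Eya2, Eya3, Eya4, Six2, Six4, Six5, Dach1 and Dach2), and each was read by the 1 probe set that carries its symbol. Each of 10 embryos gave RNA for its own Affymetrix Mouse Gene ST 1.0 array, from the left and right ear tissue together. The tissue was the otic vesicle, the sac that becomes the inner ear, and the periotic mesenchyme around it. The 5 mutants were conditional Tbx1 knockouts made with T-Cre, a recombinase driven by the promoter of the mesodermal gene T (Brachyury), so Tbx1 was removed in mesoderm-derived cells. The 5 controls were T-Cre conditional Tbx1 heterozygotes, which carry the same Cre and lack 1 Tbx1 allele in the same cells. The sample titles do not say which Tbx1 alleles the otic epithelium carried in either group. The labels name no strain.

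Eya proteins are transcriptional coactivators with a phosphatase domain and no DNA-binding domain of their own. Six-family proteins are homeodomain factors that bind DNA and bring Eya proteins to their target genes, while Dach proteins, relatives of the Ski corepressors, act with them and often repress. The network works downstream of and together with Pax factors in the ear, kidney, muscle and branchial arches, and inherited loss of EYA1 or EYA4 function causes hearing loss in people.

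Upstream sequence is shown for Six2 and Six4, the members whose signals followed each other most closely over the arrays, and for Dach2, the member with the largest difference between the groups. The RefSeq promoter table (GRCm38.p6) held 7 of the 9 members; Eya1 and Eya2 had no entry. Each sequence is the 250 bases before the most upstream listed start, 5′ to 3′ on the gene's strand, with matches to the searched motifs in capitals. Six2 lies at chr17:85688255-85688504 (minus strand), Six4 at chr12:73113426-73113675 (minus strand) and Dach2 at chrX:113297260-113297509 (plus strand).
Six2: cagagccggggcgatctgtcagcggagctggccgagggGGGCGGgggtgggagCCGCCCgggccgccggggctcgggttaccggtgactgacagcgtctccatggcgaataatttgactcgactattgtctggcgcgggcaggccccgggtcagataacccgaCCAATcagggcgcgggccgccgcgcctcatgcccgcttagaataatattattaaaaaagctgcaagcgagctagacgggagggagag
Six4: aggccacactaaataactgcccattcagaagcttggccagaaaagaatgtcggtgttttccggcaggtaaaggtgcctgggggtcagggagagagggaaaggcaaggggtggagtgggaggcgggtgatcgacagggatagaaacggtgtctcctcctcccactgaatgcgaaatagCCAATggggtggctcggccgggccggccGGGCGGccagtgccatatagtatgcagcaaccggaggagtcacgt
Dach2: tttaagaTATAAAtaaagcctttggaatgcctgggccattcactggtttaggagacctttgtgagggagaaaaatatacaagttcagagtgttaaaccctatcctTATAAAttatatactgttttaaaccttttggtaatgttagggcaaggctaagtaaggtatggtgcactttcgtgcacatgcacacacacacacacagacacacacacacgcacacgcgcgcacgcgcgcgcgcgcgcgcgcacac

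The printed Six2 and Six4 windows each hold a CCAAT box and at least 1 GC box, and the printed Dach2 window holds neither. The window before the more downstream Dach2 start, not printed, differs: it holds 1 GC box, 1 CCAAT box and no TATA box, and is 67.6% G and C. The TATA matches in the printed Dach2 window lie 243 and 145 bases before the start. The motifs were searched on both strands. The GC box was spelled GGGCGG, and the CCAAT box by the letters of its name. The TATA box was spelled TATAAA. The MEF3 site, which Six-family proteins bind, was spelled TCAGGTT. The core site of T-box factors such as Tbx1 was spelled AGGTGTGA. Of 32851 windows of the same length over all genes, 33.8% hold the CCAAT box, 32.7% the GC box, 12.4% the TATA box, 3.49% the MEF3 site and 1.12% the T-box site. Among the 10 windows of the members (3 genes have a pair of listed starts), 8 hold the GC box and 3 the CCAAT box, and the 1 printed for Dach2 holds the TATA box. Both Eya4 windows overlap and hold the same GC box, and so do both Six4 windows, so these sites are counted again. The only match to the MEF3 site lay before the more downstream Six4 start, 97 bases from it, in capitals here as gcctgggggaAACCTGAtcggccagat on the gene's strand. The T-box site was in 0 of the 10 windows. The upstream Six2 window is 64.8% G and C, that of Six4 58.8% and that of Dach2 45.6%, beside a median of 52.4% over all windows. A match is a description of these letters only, and no overlap between different motifs was found in the printed windows.

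Tbx1 itself had a mean log2 signal of 7.83 in mutant embryos (SD 0.36, n = 5). In control embryos it was 8.71 (SD 0.31, n = 5). Its limma adjusted p was 0.451, and the groups overlapped, with mutant 1 at 8.4 above control 4 at 8.23. Otic and mesenchymal genes were present on all arrays. The otoconial protein gene Oc90 averaged 9.68 in the mutants and 10.17 in the controls, and Pou3f4 of the periotic mesenchyme 7.66 and 7.76. The labels give no sex, so embryos were called female from a low signal of 3 Y-linked genes, and Xist gave the same sex on all 10 arrays. The same Y-linked genes in the embryos called female served as a measure of background, so that range comes from the values that set the sex. It was 3.12 to 4.36, and all 9 members lay above it on every array. Array mutant 5 stood apart from the rest. It had the highest mean of the 17 hindbrain and neural tube markers, 8.31, where the other mutants read 6.93 to 7.26 and the controls 6.86 to 7.55. It also had the lowest mean of the 20 periotic mesenchyme markers, 9.34, against 9.68 to 9.76 in the other mutants and 9.58 to 9.80 in the controls. The arrays numbered 1 to 3 and those numbered 4 and 5 also differed, in both groups, in immediate early genes: Fos read 8.82 to 9.08 in the former and 5.49 to 5.91 in the latter.

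The regulators showed no difference between mutants and controls that passed the test across all genes. By limma with Benjamini-Hochberg adjustment at 0.05, 0 of the 9 passed, as did 0.0100% of all genes (2 of 19938). The smallest adjusted p of a member was 0.569, for Dach2, and 1 of the 9 had an unadjusted p under 0.05, beside 7.82% of all genes. With the replicate number as a block, 0 passed and 2 of the 9, Dach2 and Six2, had an unadjusted p under 0.05, beside 9.74% of all genes. The labels do not say what a mutant and a control of the same number share, so this block and the same-number pairs below rest on an assumption. The mean was higher in the mutants for 3 members (Eya3, Dach1 and Dach2) and lower for 6, where 49.1% of all genes were higher. The median log2 difference was -0.02 over the members and -0.0021 over all genes. The signals of both groups overlapped for each of the 9, and were without overlap for 1.83% of all genes. Without mutant 5 the directions were the other way round in number, with 6 members higher and 3 lower (51.6% of all genes were then higher), and 0 passed (1 at an unadjusted p under 0.05, 7.41% of all genes). In bulk tissue, fewer cells of a type and less RNA per cell cannot be told apart.

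**Figure D1:**
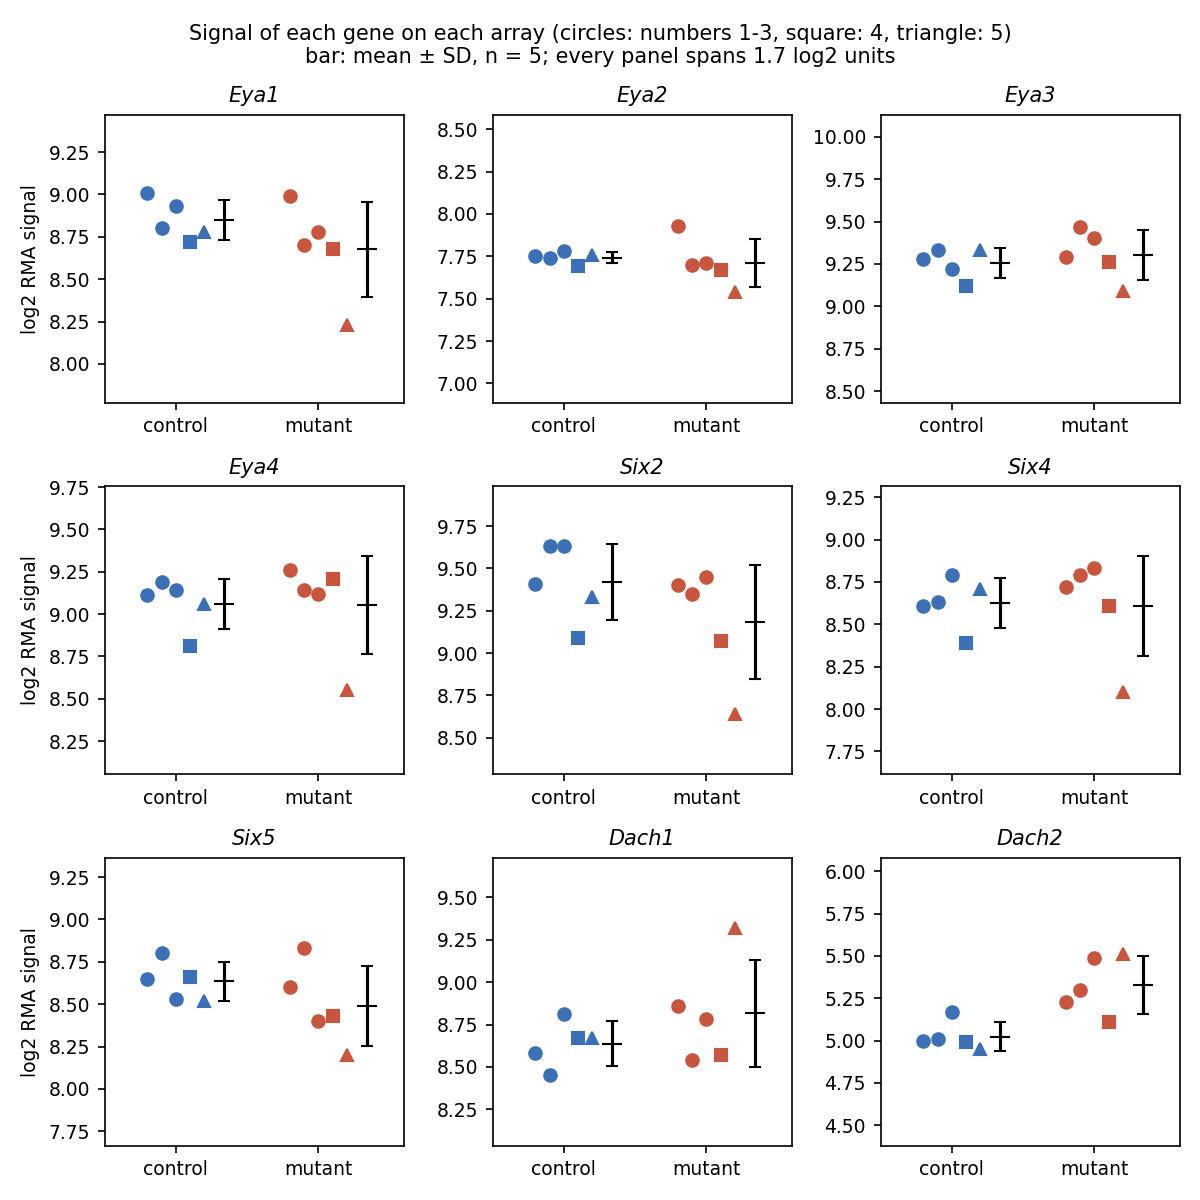
Log2 RMA signal (vertical axis) of each of the 9 genes on each array, controls at the left and mutants at the right of each panel, with circles for numbers 1 to 3, a square for 4, a triangle for 5 and bars for mean ± SD (n = 5). The triangle of mutant 5 is the lowest of the 10 points in the panels of the 7 Eya and Six-family genes and the highest in both Dach panels.

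The Eya coactivators differed little in the group means. Eya1, the member needed for the ear to grow past the otic vesicle stage in mice, read 8.99, 8.70, 8.78, 8.68 and 8.23 in mutants 1 to 5. In controls 1 to 5 it read 9.01, 8.80, 8.93, 8.72 and 8.78. Mutants 2, 4 and 5 lay below all controls and mutants 1 and 3 within their range. The log2 difference (mutant minus control, as for all differences below) was -0.17 with a 95% interval of -0.43 to 0.08, an adjusted p of 0.714 and an exact two-sided permutation p of 0.222. Each mutant was lower than the control of the same number, and mutant 5 gave most of the difference, which was -0.06 without it (-0.24 to 0.12).

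Eya4, whose human counterpart is a deafness gene, read 9.26, 9.14, 9.12, 9.21 and 8.55 in mutants 1 to 5. The controls read 9.11, 9.19, 9.14, 8.81 and 9.06. Mutant 5 was far below the other arrays, control 4 was the next lowest, and mutants 1 and 4 were above every control. The log2 difference was -0.0067 (95% interval -0.27 to 0.26, limma adjusted p = 0.994), and it was 0.12 (-0.05 to 0.29) without mutant 5. The other mutants of Eya4 spanned 9.12 to 9.26.

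Eya2, a family member also active in muscle and sensory placodes, had the smallest control SD of the 9, 0.03, with a range of 7.69 to 7.78. The mutants spread more widely, from 7.54 in mutant 5 to 7.93 in mutant 1, with an SD of 0.14. The log2 difference of Eya2 was -0.03 (-0.19 to 0.13). Eya3, the fourth family member, ranged from 9.09 to 9.47 in the mutants and from 9.12 to 9.33 in the controls. In 4 of the 5 same-number pairs the mutant read higher, with a log2 difference of 0.05 (-0.12 to 0.21). The adjusted p was 0.933 for Eya2 and 0.892 for Eya3, so neither passed.

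Among the Six-family factors, Six2 had the lowest mutant signal relative to the controls. Six2, which keeps kidney progenitors undifferentiated and is also active in head mesenchyme, read 9.40, 9.35, 9.45, 9.07 and 8.64 in mutants 1 to 5. The controls read 9.41, 9.63, 9.63, 9.09 and 9.33. Mutants 4 and 5 lay below all controls, and control 4 was nearly as low as mutant 4. The log2 difference was -0.24 (-0.56 to 0.09), which is 84.9% of the control signal (67.8 to 106%), with a limma adjusted p of 0.699 and an exact permutation p of 0.262. All 5 mutants were below the control of the same number. With the replicate number as a block, the unadjusted limma p of Six2 was 0.0332, against 0.139 without it, and the adjusted p 0.453. The difference was -0.10 (-0.34 to 0.14) without mutant 5.

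Six4, a muscle and placode factor, read 8.72, 8.79, 8.83, 8.61 and 8.10 in mutants 1 to 5. The controls read 8.61, 8.63, 8.79, 8.39 and 8.71. Mutant 5 was lowest and control 4 next, the same order as for Eya4, whereas in 4 of the 5 same-number pairs the mutant was the higher. The log2 difference was -0.02 (-0.29 to 0.26, limma adjusted p = 0.983), and 0.11 (-0.07 to 0.29) without mutant 5. Six5, the family member next to the repeat that causes myotonic dystrophy in people, ranged from 8.20 to 8.83 in the mutants and from 8.52 to 8.80 in the controls. Mutants 3, 4 and 5 read below every control and mutant 2 read above them. Its log2 difference was -0.14 (-0.37 to 0.08, limma adjusted p = 0.735), or -0.07 without mutant 5.

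Both Dach corepressors had a higher mean in the mutants, as did Eya3 among the coactivators. Dach2, the X-linked member, read 5.23, 5.30, 5.49, 5.11 and 5.51 in mutants 1 to 5. The controls read 5.00, 5.01, 5.17, 4.99 and 4.95. In 4 mutants the signal exceeded every control, mutant 4 exceeded 4 of the 5 controls, and the mutant was the higher in all 5 same-number pairs. The log2 difference was 0.30 (0.11 to 0.49), or 123% of the control signal (108 to 141%). Its limma p was 0.00455, 138th smallest among the 19938 genes, the adjusted p was 0.569, and the exact permutation p was 0.0159. The smallest exact p that 5 against 5 arrays allow is 0.00794. By the sex inferred from Y-linked genes, 4 mutants and 3 controls were female. With embryo sex as a covariate the Dach2 difference was 0.28 (limma adjusted p = 0.608). Leaving out mutant 5 gave 0.26 (0.06 to 0.45), so the Dach2 difference did not rest on that array, but it did not pass across all genes in any fit. The signal of Dach2 lay less than 1 log2 unit above the highest background value in the controls.

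Dach1, a corepressor of eye, limb and neural progenitors, read 8.86, 8.54, 8.78, 8.57 and 9.32 in mutants 1 to 5. The controls read 8.58, 8.45, 8.81, 8.67 and 8.67. Mutant 5 stood above all other arrays, mutant 1 was slightly above the highest control, and the others lay within the range of the controls. The log2 difference was 0.18 (-0.10 to 0.46, limma adjusted p = 0.731, exact permutation p = 0.310), and 0.05 (-0.14 to 0.24) without mutant 5.

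**Figure D2:**
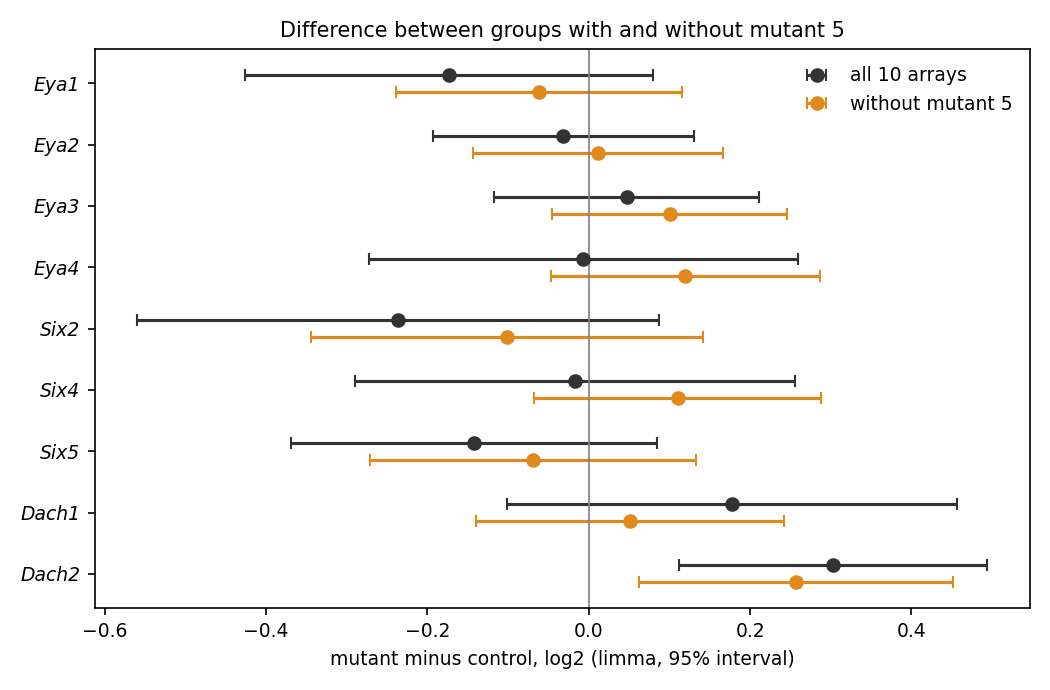
Mutant minus control log2 difference (horizontal axis, limma, points with 95% intervals) of each gene over all 10 arrays and without mutant 5. The Dach2 interval lies above 0 in both, from 0.11 to 0.49 and from 0.06 to 0.45, and the intervals of the other 8 genes include 0 in both.

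Mutant 5 was an extreme for every member, in opposite directions for the Eya and Six-family genes and the Dach genes. It held the lowest signal of the 10 arrays for all 7 Eya and Six-family members and the highest for both Dach members. Over all genes, 17.3% had their lowest value in that array and 14.1% their highest. Relative to the control mean, mutant 5 stood at -0.78 for Six2, -0.62 for Eya1, -0.52 for Six4, -0.51 for Eya4 and -0.44 for Six5. The values were smaller for Eya2 (-0.20) and Eya3 (-0.17), and they were 0.68 for Dach1 and 0.49 for Dach2. The SD was larger in the mutants than in the controls for all 9 members, which held for 55.5% of all genes. Without mutant 5 it was larger in the mutants for 6 members and smaller for Eya4 (0.06 against 0.15), Six2 (0.17 against 0.22) and Six4 (0.09 against 0.15), and larger for 46.5% of all genes. This pattern was described after the array was seen to stand apart and has no test.

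**Figure D3:**
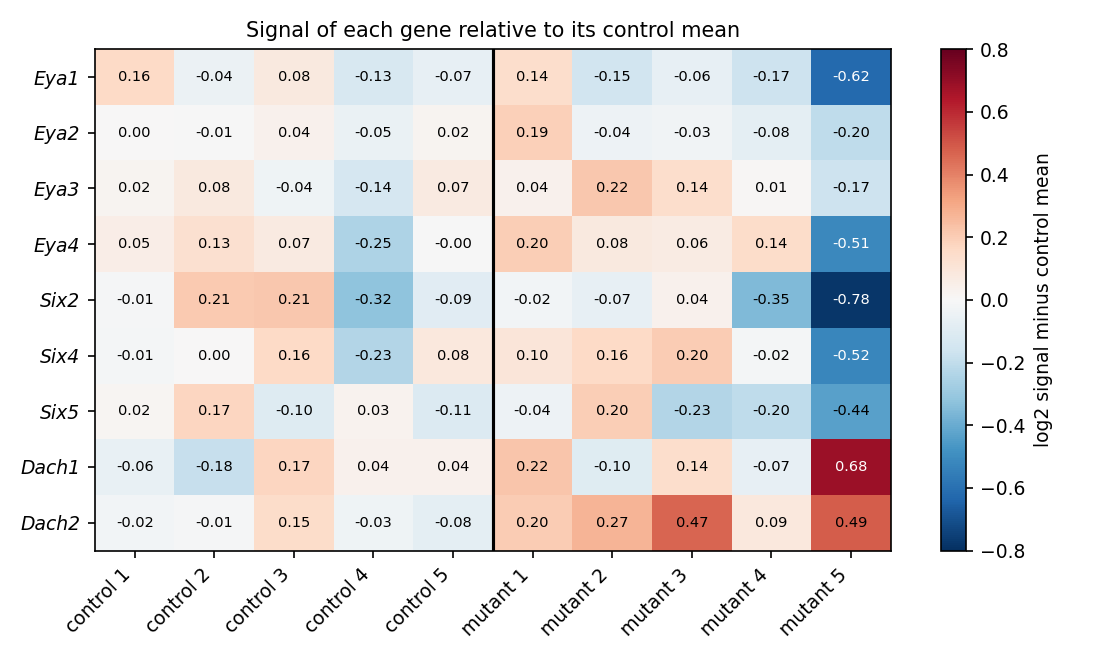
Log2 signal of each gene (rows) on each array (columns) minus the control mean of that gene, coloured from -0.8 to 0.8. The column of mutant 5 runs from -0.78 for Six2 to 0.68 for Dach1, and control 4 and mutant 4 are low for Six2, at -0.32 and -0.35.

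The Eya and Six-family genes were positively correlated over the 10 arrays, though no single relation passed correction. Deviations from the group means were correlated over the 10 arrays for the 36 pairs of members. All 21 pairs within the Eya and Six-family genes were positive, with a median Pearson r of 0.736 (0.414 to 0.917). Without mutant 5 all 21 were still positive, with a median of 0.483 and a lowest value of 0.013. When each pair was instead read without the 2 arrays farthest from the median of its first gene, 17 of the 21 stayed positive, with a median of 0.43. The 4 that turned negative were Eya1 with Six5 (-0.147), Eya2 with Six5 (-0.241), Eya3 with Six5 (-0.031) and Eya4 with Six4 (-0.15), so Six5 was part of 3 of them. Six2 and Six4 gave the smallest p, with r = 0.917 (permutation p = 0.00287, adjusted p = 0.103) and Spearman rho = 0.842 (permutation p = 0.00759, adjusted p = 0.234). The r of Six2 with Six4 was 0.634 without mutant 5 and control 4, the arrays farthest from the median of Six2. Of the 36 pairs, 12 had an unadjusted Pearson p under 0.05 and 0 an adjusted one. All probe sets of an array share its RNA, tissue piece and normalization. Pairs of other genes were not counted in the same way, so these counts have no share over all genes beside them. The difference between the arrays numbered 1 to 3 and those numbered 4 and 5, described below, was left in the deviations. Whether the correlations are particular to these genes was not tested.

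The members were also set against the means of 11 marker lists, 99 relations in all, on the same deviations. Eya4 was lower where the hindbrain and neural tube list was higher, with r = -0.939 (permutation p = 0.0189, adjusted p = 0.125) and rho = -0.636 (permutation p = 0.0726, adjusted p = 0.288). For Six4 with that list r was -0.900 (permutation p = 0.0239, adjusted p = 0.133) and rho was -0.576 (permutation p = 0.115, adjusted p = 0.368). Without mutant 5 alone, r was -0.81 for Eya4 and -0.698 for Six4. Without both mutant 5 and control 4, the arrays with the most extreme hindbrain means, r was -0.276 for Eya4 and -0.111 for Six4, so both relations rest on those arrays together. These were the members with the largest r in size with that list. Eya3 came next, at r = -0.887 with a smaller p (permutation p = 0.00272, adjusted p = 0.0570) and rho = -0.745 (permutation p = 0.0217, adjusted p = 0.235), and its r stayed at -0.615 without the same arrays. Six5 had r = -0.696 (permutation p = 0.0792, adjusted p = 0.218) over all arrays and -0.816 without them. For Six2, Eya1 and Eya2 r was -0.866, -0.849 and -0.681, and -0.313, -0.344 and -0.207 without them. The list's most abundant genes in these data were Fabp7, a fatty acid binding protein of neural progenitors, at 11.40 in mutant 5 against 9.03 to 10.40 in the controls, and the zinc finger factor Zic1, at 9.94 against 9.38 to 9.89. The other mutants read 10.14 to 10.90 for Fabp7 and 9.27 to 10.32 for Zic1, so mutant 5 was not the highest array for Zic1. Mutant 5 was the highest array for 11 of the 17 hindbrain markers and the lowest for 0. The part of neural or mesenchymal tissue in the results of the members was not tested.

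Dach1 kept most of its r with the periotic mesenchyme and neuron lists when the farthest arrays were left out. It was lower where the periotic mesenchyme list was higher, with r = -0.958 (permutation p = 0.00106, adjusted p = 0.0570) and rho = -0.891 (permutation p = 0.00234, adjusted p = 0.0901). With mutant 5 and control 3 left out, r was -0.862. With the list of ganglion and other neurons, Dach1 gave r = 0.823 (permutation p = 0.00160, adjusted p = 0.0570) and rho = 0.915 (permutation p = 0.00036, adjusted p = 0.0356), the latter past the threshold. Without mutant 4 and control 2, r was 0.861. With the hindbrain list, r of Dach1 was 0.814 (permutation p = 0.0402, adjusted p = 0.167), and 0.531 without mutant 5 and control 4. Without mutant 5 alone, r of Dach1 went from -0.599 to -0.048 with the endothelium list. With the macrophage list it went from -0.73 to -0.419. The neuron list averaged 8.43 to 9.24 in the mutants and 7.99 to 8.88 in the controls, with mutant 5 highest. Its most abundant genes were the growth cone protein gene Gap43 and the neuronal tubulin Tubb3, at 11.85 and 11.95 in mutant 5 and at most 11.27 and 11.03 in the controls and 11.40 and 10.96 in the other mutants. Other relations had the same smallest adjusted Pearson p, 0.0570, which 7 of the 99 shared. The Eya3 relation and those of Dach1 with mesenchyme and neurons were among them. Eya1 was higher where the endothelium list was higher, with r = 0.943 (permutation p = 0.00395) and rho = 0.867 (permutation p = 0.00462, adjusted p = 0.0901). Its r was 0.721 without mutants 1 and 5. Six5 was lower where the red blood cell list was higher, with r = -0.657 (permutation p = 0.00327) and rho = -0.818 (permutation p = 0.004, adjusted p = 0.0901), and r was -0.764 without controls 2 and 5. Eya4 was lower where the neural crest and Schwann precursor list was higher, with r = -0.72 (permutation p = 0.00403) and rho = -0.806 (permutation p = 0.00546, adjusted p = 0.0901), and r was -0.787 without controls 2 and 4. The last of the 7 was Eya1 with the immediate early genes, for which no r is given because that list separates the arrays numbered 1 to 3 from those numbered 4 and 5. Over the 99 relations, 26 had an unadjusted Pearson p under 0.05 and 0 an adjusted one, and 1 had an adjusted Spearman p under 0.05.

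**Figure D4:**
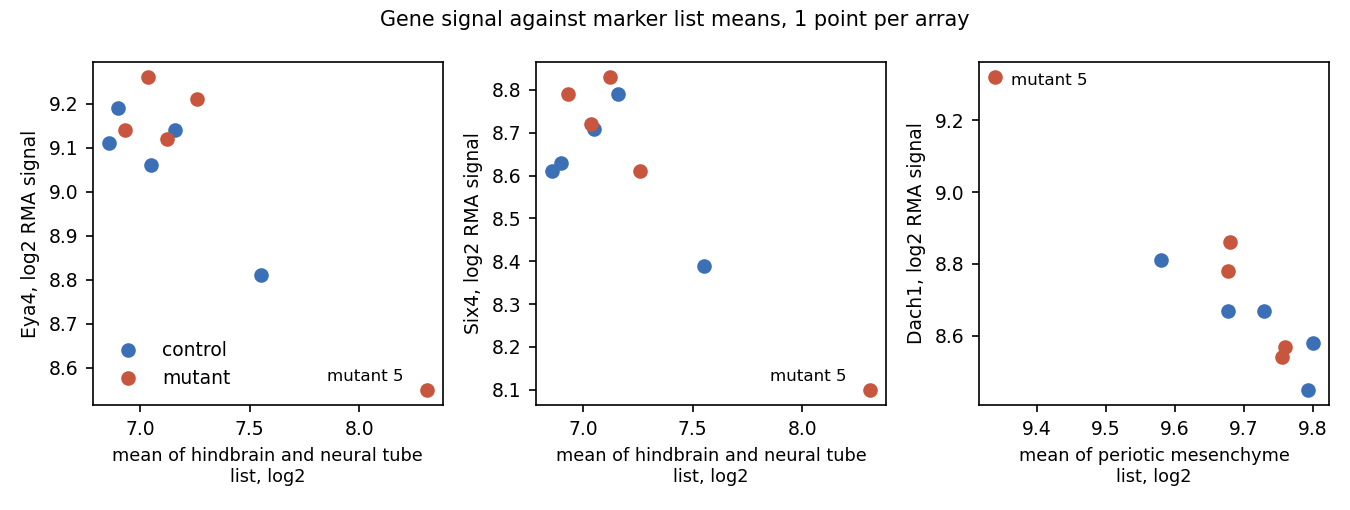
Log2 signal of Eya4, Six4 and Dach1 (vertical axes) against the mean log2 signal of a marker list (horizontal axes), 1 point per array, blue for controls and red for mutants. Mutant 5 lies at 8.31 on the hindbrain axis and 9.34 on the mesenchyme axis, away from the other arrays, and Dach1 is lower on arrays with higher mesenchyme means.

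The members were also compared between the arrays numbered 1 to 3 and those numbered 4 and 5, at equal genotype, and none passed the test. The signal was lower in the arrays numbered 4 and 5 for 8 members, all but Dach1, where 60.8% of all genes were lower. By limma 0 of the 9 passed (0.191% of all genes did) and 4 had an unadjusted p under 0.05 (12.0% of all genes). These were Six2 (-0.45, interval -0.64 to -0.25, adjusted p = 0.0851), Eya1 (-0.27), Six4 (-0.27) and Eya4 (-0.25). Without mutant 5, all 9 were lower (59.4% of all genes), 0 passed (0.160% of all genes) and Six2 alone kept an unadjusted p under 0.05 (9.52% of all genes), at -0.34 (-0.50 to -0.18, adjusted p = 0.110).

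The genotype difference itself was compared between these array subsets. Within the arrays numbered 1 to 3 it was -0.15 for Six2, -0.09 for Eya1, 0.10 for Six4, 0.11 for Dach1 and 0.28 for Dach2 (interval 0.03 to 0.53). Within those numbered 4 and 5 it was -0.36, -0.30, -0.20, 0.27 and 0.34 (-0.06 to 0.74), in the same order. In the limma interaction test 0 of the 9 passed and 0 had an unadjusted p under 0.05, beside 0% and 2.53% of all genes. Six4 had the smallest interaction p, 0.170, with a difference of -0.30 (-0.75 to 0.15) between the subsets.

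No other gene of the network lists passed the limma test either. Of the 45 genes measured in the lists of Pax factors, of Six-family factors and cofactors, and of targets, 0 passed and 8 had an unadjusted p under 0.05, beside 7.82% of all genes. Of the 8 Pax factors, 5 were higher and 3 lower in the mutants, with a median log2 difference of 0.14 that was -0.03 without mutant 5. Mutant 5 was the highest array for 5 of the 8. Those of smallest p were Pax3, a factor of the dorsal neural tube and muscle progenitors, with 0.70 ± 0.24 (SE), and Pax1, a sclerotome and pharyngeal factor, with -0.32 ± 0.13. Their limma adjusted p was 0.572 and 0.583. Of 15 measured Six-family factors and cofactors, 8 were higher and 7 lower, with a median of 0.0020. Skil and Ski, corepressors related to the Dach proteins, had 0.15 ± 0.06 (adjusted p = 0.586) and -0.10 ± 0.08 (adjusted p = 0.765). Six3 and Six6, factors of the eye and forebrain, had -0.08 and 0.02. Of 22 genes reported as Eya or Six-family targets, 11 were higher and 11 lower, with a median of 0.02. The muscle regulator Myod1 had -0.34 ± 0.14 (adjusted p = 0.586) and the cyclin Ccnd1 -0.19 ± 0.09 (adjusted p = 0.602). Myod1 is also 1 of the 18 skeletal muscle markers. All 18 were lower in the mutants, with a median log2 difference of -0.22 and 0 past the threshold, where 49.1% of all genes were higher. The part of muscle tissue in the Myod1 value was not tested.

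Genes of like pattern were ranked by the Pearson r of their deviations from the group means over the 10 arrays, among 15361 named genes. The closest to Eya1 was Vegfc, a lymphatic growth factor, with r = 0.982, followed by the lysosomal enzyme gene Gusb at 0.972. Eya4 was followed most closely by Stra6, the retinol transporter, at 0.975, and Pus7 at 0.962. For Six2 they were Dusp6, a phosphatase that restrains ERK signalling, at 0.975, and the replication factor Cdc6 at 0.959. Six4 had Slc43a3 at 0.973 and Gstk1 at 0.963, and Six5 had Mettl2 at 0.973 and Rpl27 at 0.972. Dach1 had the dopamine receptor Drd2 at 0.988 and the kinase Ttbk1 at 0.977. Eya2 had S100a9 at 0.957 and Vwf at 0.951, Eya3 had Gzf1 at 0.966 and Cth at 0.957, and Dach2 had Snx10 at 0.953 and Tex101 at 0.943. The lowest signals were those of Drd2 (mean 5.24 in the mutants, 5.34 in the controls), S100a9 (5.18, 5.06) and Tex101 (4.85, 4.83). They lie not far above the highest background value, 4.36. Without mutant 5 the r of these 18 genes lay between 0.879 and 0.978, although they were chosen for their r over the same arrays. They are the highest of very many values over 10 arrays and carry no test.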

How the data were processed

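The deposited log2 values came from RMA (background correction, a common distribution for all arrays, probe set summary) run by the authors with Expression Console 1.1 of Affymetrix, as given in the submitters' processing notes. Array medians of 6.19 to 6.27 showed the log2 scale. No source used here names the probe file version. The platform annotation gave 21789 of 35557 probe sets a single symbol, 1621 several and 12147 none, and 21698 ids matched RefSeq (GRCm38.p6), used for names. A gene's probe set of highest mean stood for it, which left 19938 genes. Limma 3.58.1 (R 4.3.3; lmFit, then eBayes with trend) gave two-sided p-values, adjusted by Benjamini-Hochberg over 21789 probe sets with a threshold of 0.05, and 95% intervals. Arrays were also permuted exactly, correlations had 100000 resamples within groups, and the fit was tested on simulated data. Genes of like pattern had to reach 5 on some array. Each network list names its genes past the threshold, or else the pair of smallest p, and Six3, Six6, Oc90 and Pou3f4 were picked later, with their values known. The members and lists were chosen with earlier results of these data known. The labels call the samples biological replicates. Deviations of a mutant and the control of its number correlated at 0.122 to 0.247 (other numbers -0.392 to 0.382). All exceeded 0.1, so pairing was assumed, yet for only 2 of 5 mutants was its own number the best match.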

Additional observations from a re-analysis of the deposited data

Results flagged for a closer look

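Dixon's test marked 4 of the 46 groups of 5 values examined (the 9 genes and 14 list means in each group) for 1 distant array each, and about 1 in 20 groups (2.3 here) are marked by chance. Eya4 in mutant 5 had a log2 signal of 8.548, where the other mutants read 9.12 to 9.26. The mean of the periotic mesenchyme list in mutant 5 was 9.339, against 9.68 to 9.76 in the other mutants. For the hindbrain and neural tube list, mutant 5 had a mean of 8.31, against 6.93 to 7.26. The mean of the skeletal muscle list in mutant 4 was 9.411, against 8.54 to 8.79.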

How the results depend on the processing

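None of the 9 genes passed the threshold in any of the 11 other fits or the 10 fits that left out 1 array. With the replicate number as a block (the pairing assumed from the numbers), 2 genes passed over all genes and 0 of the 9, the same counts as in the main fit. Whether the 2 were the same genes was not compared. The Dach2 adjusted p with the block was 0.381. The 2 genes called over all were 0 among probe sets above the median signal, 1 in only the arrays numbered 1 to 3 and 0 in only those numbered 4 and 5. The direction of Eya1, Six2, Six5, Dach1 and Dach2 held in every fit, with Dach2 at 0.28 to 0.34 in the other fits and 0.26 to 0.36 with 1 array left out. The log2 difference of Eya2 turned to 0.0283 in only the arrays numbered 1 to 3, and that of Eya3 to -0.0489 in only those numbered 4 and 5. Eya4 turned to 0.0721 with array weights, 0.0273 in only the arrays numbered 1 to 3 and 0.0185 with embryo sex as a covariate. Six4 turned to 0.0588, 0.1029 and 0.0015 in the same fits. The cause was not tested. With 1 array left out, the range was -0.0878 to 0.0112 for Eya2, -0.069 to 0.1198 for Eya4 and -0.0751 to 0.1101 for Six4, and the highest of each was without mutant 5. Dach2 lay under the median signal, so that filter gave it no value, and each member had 1 probe set, so averaging probe sets could not be tried. The fit of array subsets without mutant 5 was chosen after seeing the data: it called 32 genes, against 38 with that array and 30 without the trend. The number of arrays limits the precision, and Dach2 lies nearest to background.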
